A study of Caenorhabditis elegans with 9 samples.

Results

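The comparison described here sets the hypoxia response of C. elegans that lack a working hif-1 gene against that of wild type worms, gene by gene. Its members were all genes with a named spot on the arrays: 7774 of the 21888 spots carried a name, they stood for 7200 genes, and 7179 of these were measured on 2 or more arrays per genotype and could be tested, among 20858 tested features in all. Each array held RNA labelled H, in Cy3, against RNA labelled N, in Cy5, of the same genotype and replicate number, and the series is titled for the hypoxia response, so H is read as hypoxia and N as normoxia. The report uses 3 wild type arrays and 3 hif-1 mutant arrays, and cites 3 vhl-1 mutant arrays beside them. The labels name no allele, stage, oxygen level or time of exposure, nor do they say whether replicates were separate cultures, so the p-values measure only the spread between these samples.

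Hypoxia-inducible factor 1 is a transcription factor made of an alpha and a beta subunit. The alpha subunit, which hif-1 encodes in C. elegans, is hydroxylated by EGL-9 when oxygen is plentiful, recognised by VHL-1 and degraded. In low oxygen the subunit escapes this mark, pairs with AHA-1 and raises the transcription of its targets. Worms without HIF-1 lose the rise of such targets, while other routes, such as the heat shock response, can act without it. A gene that needs HIF-1 would thus be expected to respond in wild type and less, or not at all, in the mutant.

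All values below are log2 ratios, H over N, after each array was set to a median of 0, and a difference is the mean response of the hif-1 mutant minus that of wild type. Which base and which direction the deposited log ratios have is not stated. Base 2 was assumed, N over H was taken from the order of the sample titles, and the sign was turned. With the opposite reading each rise below would be a fall, and no p-value would change. Every array had N in Cy5, so a dye effect shared by the 6 arrays drops out of the difference. It does not drop out of a test of one genotype against 0: there a gene's own dye effect and a response to hypoxia cannot be told apart, since no array had the dyes swapped. The genes aha-1, egl-9, hif-1, rhy-1 and vhl-1 were not among the named spots, so the mutation was not checked in the values. The arrays gave 21296 to 21487 spot values each. Among named genes the SD of the log ratios was 0.55 to 0.57 on the wild type arrays, 0.73 on hif-1 arrays 1 and 2, and 0.54 on hif-1 array 3. Correlations between arrays, taken over named genes that are no independent replicates, were 0.05 to 0.45 among the wild type arrays, 0.08 to 0.32 among the hif-1 arrays and -0.07 to 0.37 over the 9 pairs of a wild type and a hif-1 array. The pairs were uneven: wild type array 3 correlated at 0.45 with wild type array 2 and at 0.29 with hif-1 array 2, but at 0.05 with wild type array 1, at -0.07 with hif-1 array 1 and at 0.03 with hif-1 array 3.

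No named gene's response differed between the genotypes past the test over all features. The HIF-1 target F22B5.4 had a mean response of 2.26 in wild type and 0.21 in the mutant, while the small heat shock gene hsp-16.21 passed the test against 0 in both. The wild type call of hsp-16.21 was lost in 5 of the 19 alternative settings in which it was read, and a dye effect was not excluded. In limma, 0 of the 7179 named genes (0%) and 0 of the 20858 features had an adjusted p under 0.05 for the difference. The lowest adjusted p was 0.446 among named genes and 0.382 among all features. At an unadjusted p under 0.05 there were 420 named genes (5.85%), 183 higher (2.55%) and 237 lower (3.3%) in the mutant, where chance gives 359. Among all features there were 1239 (5.94%), with 2.54% higher and 3.4% lower. The 5th and 95th percentiles of the difference over named genes were -0.74 and 0.74, and 283 genes (3.94%) had a difference of at least 1 in size, 163 of them below 0. The median SE of a difference was 0.37 and the median 95% interval, not adjusted over features, reached 0.80 to either side. A loss of less than about 1 unit could thus not be told from the spread of 3 arrays against 3. Larger losses missed the adjusted test in limma too. Among them were F22B5.4 (-2.05, adjusted p = 0.603), snrp-40.1 (-2.28, adjusted p = 0.473) and T22F3.11 (-2.50, adjusted p = 0.603). A gene that did not pass may therefore still have a loss above 1 unit.

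Because no gene passed, the genes were sorted by how the response changed, as a description. Taken were genes with all 6 values whose arrays did not overlap between genotypes and whose means differed by at least 1. Of 6920 genes with 6 values, 661 (9.55%) did not overlap, 297 (4.29%) higher and 364 (5.26%) lower in the mutant. Among all features the shares were 9.15%, 4.25% and 4.9%. Of these, 155 genes (2.24%) also differed by at least 1, 58 higher (0.838%) and 97 lower (1.4%), against 2.06%, 0.817% and 1.24% of all features. The response was larger in wild type in 27, larger in the hif-1 mutant in 95 and of opposite sign, with both means at least 0.5 in size, in 33. With all arrays scaled to one spread the counts were 43, 57 and 49. It also rests on wild type array 1, without which they were 150, 125 and 130. Membership in these classes was fixed by the values themselves, so the class counts support nothing further.

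**Figure D1:**
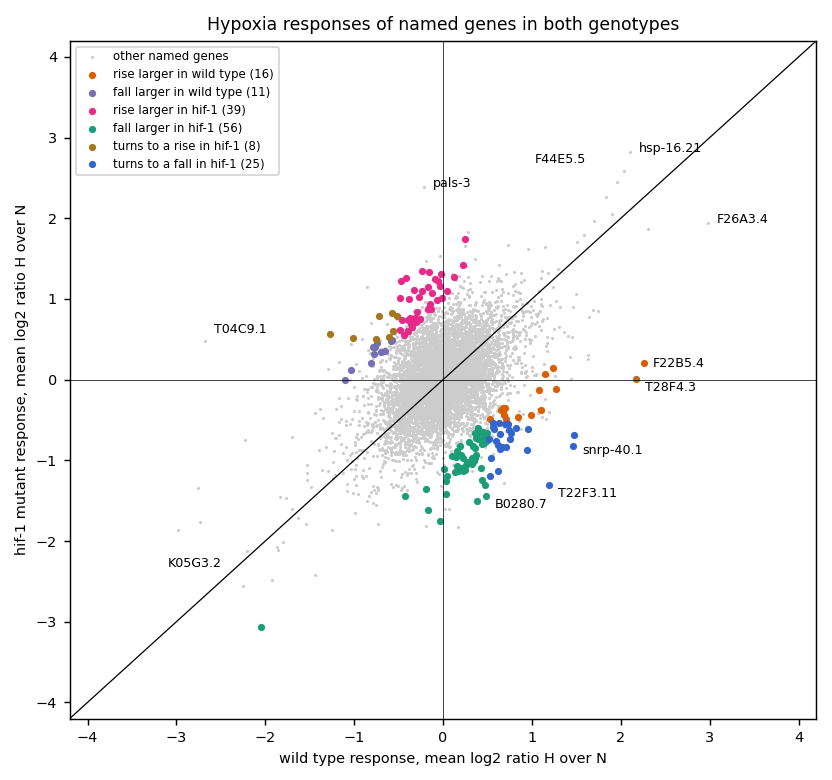
Mean log2 ratio of H over N in wild type (horizontal axis) and in the hif-1 mutant (vertical axis) for each of the 7179 named genes; the diagonal marks equal responses and colours mark the 6 classes, with the number of genes in each. F22B5.4 lies far to the right near the horizontal line (2.26 and 0.21), while hsp-16.21, at 2.10 and 2.82, lies near the diagonal.

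F22B5.4, a gene long used as a HIF-1 target in C. elegans, had the second largest loss among the rises that were larger in wild type. Its values were 0.94, 2.50 and 3.33 on the 3 wild type arrays and 0.35, -0.33 and 0.60 on the 3 hif-1 arrays. Every wild type array was above every hif-1 array, though wild type array 1 exceeded hif-1 array 3 by little. The wild type mean was 2.26 ± 1.21 (SD, n = 3), a 4.79-fold rise (adjusted p = 0.00813 against 0 in limma), and the mutant mean 0.21 ± 0.48 (SD, n = 3). The difference was -2.05 (SE 0.52, 95% interval -3.17 to -0.94), with an adjusted p of 0.603 in limma. An exact two-sided permutation test of 3 arrays against 3 gave p = 0.1, the smallest this design allows. In the vhl-1 mutant, in which HIF-1 is not marked for degradation through VHL-1, F22B5.4 stood at 0.30 ± 0.38 (SD, n = 3).

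The class of rises that were larger in wild type, to which F22B5.4 belongs, held 16 genes. They were 0.231% of the named genes with 6 values, against 0.231% of all such features. Their median response was 0.91 in wild type, -0.36 on the hif-1 arrays and -0.08 for vhl-1. C07A4.2 read 0.67, 0.80 and 1.84 in wild type and -0.45, -0.76 and 0.10 in the mutant, a difference of -1.48 (SE 0.39, adjusted p = 0.603 in limma). F21D12.3 read 1.12, 1.69 and 1.01 in wild type, where its rise passed the test against 0 (mean 1.27, adjusted p = 0.0376), and 0.46, -0.72 and -0.07 in the mutant (difference -1.39, SE 0.39, adjusted p = 0.635). No hif-1 array of either gene reached its lowest wild type array. K01D12.5 was at -0.16, 1.26 and 1.86 in wild type and -0.90, -0.18 and -0.24 in the mutant, so that wild type array 1 lay just above the mutant arrays and far below the other two. T28F4.3 had the largest difference of the class, -2.17, from a single value: it read 5.92 on wild type array 1, 0.25 and 0.35 on arrays 2 and 3, and -0.01, -0.04 and 0.06 in the mutant. Without wild type array 1 its difference was -0.30.

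Falls that were larger in wild type were fewer and smaller, with 11 genes (0.159%, against 0.206% of all features) and differences of 1.01 to 1.20. The class median was -0.76 in wild type, 0.35 on the hif-1 arrays and -0.01 for vhl-1. F21G4.3 had the largest difference, from -0.32, -0.85 and -1.06 in wild type to 0.90, -0.15 and 0.61 in the mutant (1.20, SE 0.35, adjusted p = 0.659 in limma). Neither genotype's mean passed the test against 0. ergi-2, a homologue of a protein of the compartment between endoplasmic reticulum and Golgi, read -1.81, 0.09 and -0.66 in wild type and 0.20, 0.52 and 0.48 in the mutant, a difference of 1.19. Wild type array 1 was the lowest of its values by more than 1 unit. F31A3.3, R07B1.5 and C50E3.9 differed by 1.16, 1.16 and 1.10.

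**Figure D2:**
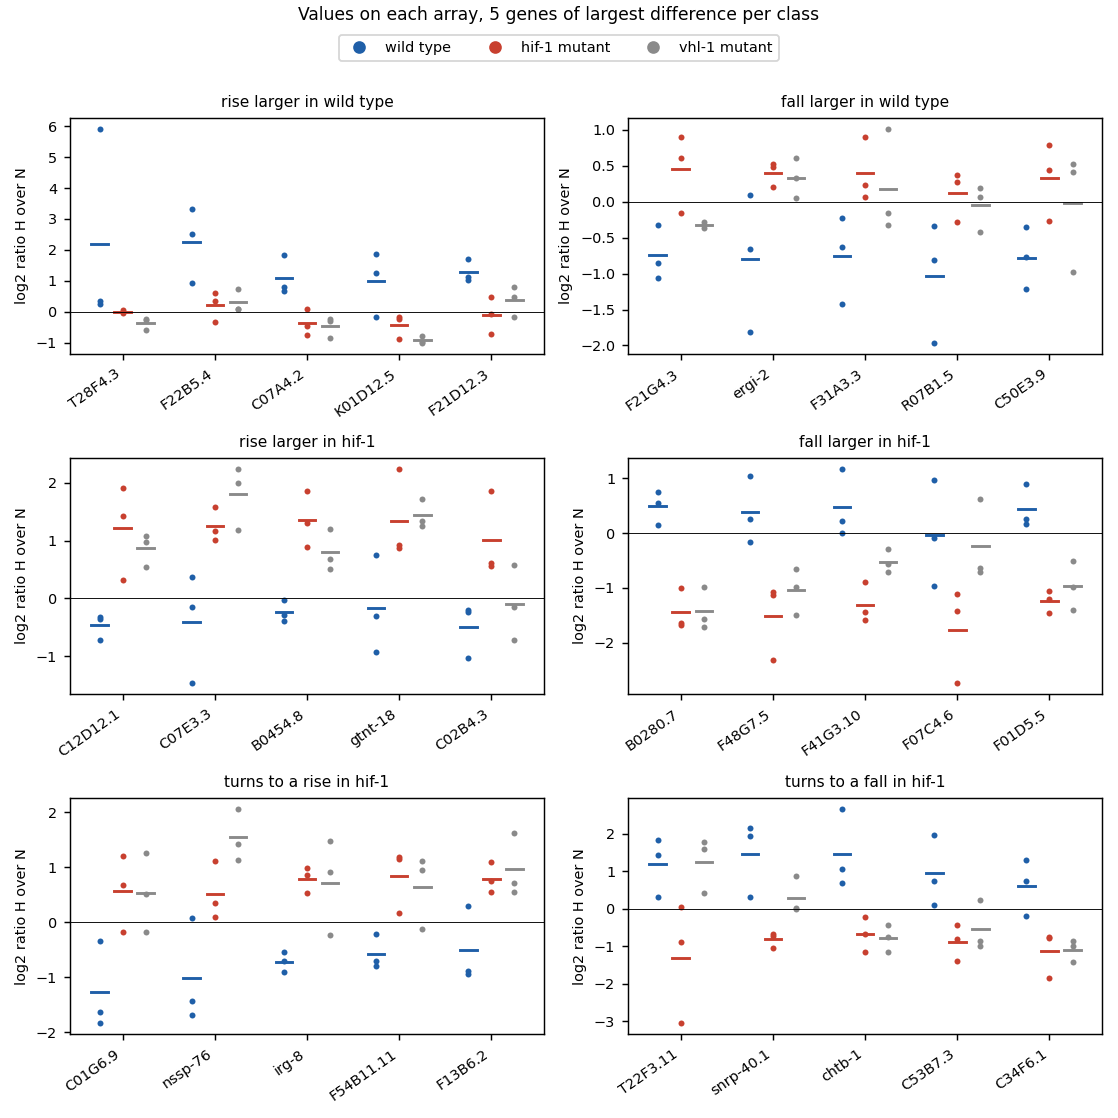
Log2 ratio of H over N on each array (points) and the mean of 3 arrays (bars) for the 5 genes of largest difference in each of the 6 classes, for wild type (blue), the hif-1 mutant (red) and the vhl-1 mutant (grey). The vertical scales differ between panels; the high point of T28F4.3 at 5.92 is wild type array 1 alone, whereas the 3 arrays of irg-8 lie between -0.91 and -0.54 in wild type and between 0.53 and 0.99 in the hif-1 mutant.

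Falls larger in the hif-1 mutant made up the biggest class, 56 genes (0.809%, against 0.677% of all features). They held several of the lowest p-values of the comparison. Their median was 0.33 in wild type, -0.97 on the hif-1 arrays and -0.69 for vhl-1. B0280.7 had the lowest p of any named gene. It read 0.15, 0.55 and 0.75 in wild type and -1.67, -1.65 and -1.003 in the mutant, above 0 on every wild type array and below 0 on every hif-1 array. Its fall in the mutant passed the test against 0 (mean -1.44 ± 0.38, SD, n = 3, adjusted p = 0.0135 in limma), and the difference was -1.92 (SE 0.34, 95% interval -2.66 to -1.19, adjusted p = 0.446). F01D5.5 gave much the same picture on both of its spots, with differences of -1.29 and -2.07: averaged, it read 0.25, 0.17 and 0.90 in wild type and -1.20, -1.46 and -1.06 in the mutant (difference -1.68, adjusted p = 0.473). F41G3.10 read 0.23, 0.00 and 1.17 against -0.89, -1.59 and -1.44 (difference -1.77, adjusted p = 0.473). For each of these genes every mutant array lay well below the lowest wild type array.

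C30G12.1 differed by less and its replicates spread little. It read 0.14, 0.10 and 0.15 in wild type and -0.96, -1.24 and -1.25 in the mutant (difference -1.28, SE 0.28, adjusted p = 0.561 in limma), and its vhl-1 mean was -1.28 ± 0.05 (SD, n = 3). ZK470.6 read 0.12, 0.17 and 0.75 in wild type and -0.90, -1.03 and -1.12 in the mutant. F48G7.5 and F07C4.6 completed the largest differences of the class with -1.88 and -1.72, both with hif-1 array 2 as the lowest value (-2.31 and -2.74). The wild type arrays of F07C4.6 spread from -0.97 to 0.96. B0280.7, C30G12.1, ZK470.6, F01D5.5 and F48G7.5 also fell past the test against 0 in the vhl-1 mutant, with means of -1.42, -1.28, -1.37, -0.97 and -1.04.

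Rises larger in the hif-1 mutant numbered 39 (0.564%, against 0.527% of all features). Their median was -0.26 in wild type, 1.00 on the hif-1 arrays and 0.85 for vhl-1. B0454.8 rose in the mutant past the test against 0 (1.35 ± 0.48, SD, n = 3, adjusted p = 0.0186 in limma). It read 0.89, 1.31 and 1.85 there and -0.29, -0.03 and -0.39 in wild type, with no overlap on either of its 2 spots, whose differences were 1.68 and 1.50. The difference of the averaged spots was 1.59 (SE 0.34, adjusted p = 0.538). C12D12.1 read -0.36, -0.33 and -0.71 in wild type and 1.43, 1.91 and 0.32 in the mutant, where its mean of 1.22 passed the test (adjusted p = 0.0469). C07E3.3, gtnt-18 and C02B4.3 differed by 1.67, 1.50 and 1.50; the first and second stood at 1.81 and 1.44 in the vhl-1 mutant and the last at -0.10. Of the 95 genes whose response was larger in the hif-1 mutant, 86 had a wild type mean of the opposite sign, under the size of 0.5 that a turn required.

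Genes that turned were mostly higher in H in wild type and lower in H in the mutant. They numbered 25 of that kind (0.361%, against 0.331% of all features) and 8 of the other (0.116%, against 0.0853%). snrp-40.1, a homologue of a protein of the U5 snRNP of the spliceosome, read 0.30, 2.15 and 1.94 in wild type and -1.06, -0.73 and -0.66 in the mutant. The wild type mean of 1.47 ± 1.01 (SD, n = 3) passed the test against 0 (adjusted p = 0.0451 in limma), the mutant mean of -0.82 ± 0.21 did not (adjusted p = 0.188), and the difference was -2.28 (SE 0.46, adjusted p = 0.473). Wild type array 1 was the lowest of its group. The difference was -2.86 without it (adjusted p = 0.0542 in limma) and -1.94 without wild type array 2. Leaving out the array nearest to the mutant widens the difference by the choice alone. slfl-3, of a schlafen-like gene class, was the most even: 0.83, 0.55 and 0.73 against -0.71, -0.76 and -1.04 (difference -1.54, SE 0.29, adjusted p = 0.446). chtb-1 read 0.69, 1.06 and 2.67 in wild type and -0.69, -0.21 and -1.15 in the mutant (difference -2.15, adjusted p = 0.561).

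T22F3.11 had the lowest difference of all named genes, -2.50 (SE 0.68, adjusted p = 0.603 in limma). It read 0.31, 1.83 and 1.44 in wild type and -0.88, -3.06 and 0.04 in the mutant, so hif-1 array 2 carried much of it, and without that array the difference was -1.62. C53B7.3 and C34F6.1 differed by -1.82 and -1.75. Further turns with low p-values were those of C01B9.1 (-1.49), C43F9.5 (-1.49) and T26F2.1 (-1.57), each above 0 on all wild type arrays and below 0 on all mutant arrays. C31H5.6, which lacked a value on hif-1 array 1 and so could not enter a class, differed by -1.97, with values of -0.82 and -1.75 on the 2 hif-1 arrays that measured it.

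In the other direction, irg-8, named for its induction by infection, read -0.54, -0.91 and -0.71 in wild type and 0.85, 0.99 and 0.53 in the mutant. The groups lay on opposite sides of 0 with more than 1 unit between them, and the difference was 1.51 (SE 0.40, adjusted p = 0.603 in limma). C01G6.9 differed by 1.84 and on its 2 spots by 1.88 and 1.79: averaged, it read -0.35, -1.84 and -1.64 in wild type and 0.67, -0.18 and 1.19 in the mutant. nssp-76, F54B11.11 and F13B6.2 differed by 1.54, 1.40 and 1.30, and nssp-76 stood at 1.54 ± 0.47 (SD, n = 3) in the vhl-1 mutant. Over all 6920 genes with 6 values, 144 (2.08%) had all wild type arrays on one side of 0 and all mutant arrays on the other, 93 of them above 0 in wild type. On the same side of 0 on all 6 arrays were 848 genes, 373 higher and 475 lower in H. The share over all features was counted for neither number, so the 144 genes are no sign of turned responses. A dye effect of a gene's own and a response to hypoxia cannot be told apart here, so the 848 are no count of shared responses.

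Some genes had H over N ratios away from 0 in both genotypes, where the limit on dye effects given above holds in full. The test against 0 was passed by 34 named genes in wild type (0.474%) and by 74 in the hif-1 mutant (1.03%), and 10 of them (0.139%) passed in both, 2 higher and 8 lower in H. Among all features the shares were 1.42%, 1.75% and 0.618%. hsp-16.21, a small heat shock protein that holds unfolding proteins in solution, read 0.95, 3.67 and 1.68 in wild type and 2.57, 2.33 and 3.56 in the mutant. The groups overlapped, both means were high (2.10 and 2.82), and the difference of 0.72 had a 95% interval from -0.59 to 2.04. It was 0.15 without wild type array 1 and 1.51 without array 2. dpsm-1 rose by 1.58 and 1.79, with values of 1.69, 1.99 and 1.07 against 0.79, 2.17 and 2.41. Its difference of 0.21 had an interval from -0.80 to 1.22, so a change of up to about 1 unit either way was within the error.

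C18E9.5 fell past the test in both genotypes. It read -1.09, -1.88 and -2.43 in wild type and -2.12, -2.68 and -1.24 in the mutant, and the difference was -0.22 (95% interval -1.13 to 0.69). erp-44.3, whose gene class encodes thioredoxin-like proteins that work in the endoplasmic reticulum, read -1.49 and -2.24 on 2 wild type arrays and -1.79 and -2.35 on 2 hif-1 arrays. The closest match was that of C10G11.6, whose means were -1.13 and -1.15 (difference -0.02, interval -0.74 to 0.69). K05G3.2, C11H1.7, Y106G6H.9, F56C9.8 and T19C3.6 differed by -0.26 to 0.24. Being past the test in both genotypes favours equal means, so these differences are descriptions. The list also depends on single arrays. Of its 10 genes 3, 2 and 1 remained without wild type array 1, 2 and 3, and 3, 2 and 4 without hif-1 array 1, 2 and 3.

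The inducible HSP70 genes F44E5.4 and F44E5.5, which refold proteins after stress, were above 1 on every array of both genotypes. F44E5.5 read 1.04, 1.81 and 3.26 in wild type and 1.21, 2.41 and 4.14 in the mutant, and F44E5.4 read 1.18, 1.53 and 3.18 against 1.18, 1.93 and 4.23. In limma their means passed the test against 0 in the mutant (adjusted p = 0.0301 and 0.0368) and missed it in wild type (0.0887 and 0.102). The values of the 2 genotypes ran side by side over the same range, and the differences were 0.55 (95% interval -1.05 to 2.16) and 0.48 (-1.11 to 2.08). These adjacent genes are nearly identical, so their spots may read one another's RNA. hsp-16.20 was at 0.38, 2.72 and 1.85 in wild type and at -0.13 and 1.69 on 2 mutant arrays. None of the 3 chaperone genes with 6 values was free of overlap between the genotypes.

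F26A3.4, named after its values were seen, was the named gene with the highest wild type mean (2.98 ± 1.33, SD, n = 3). It read 1.62, 4.27 and 3.07 there and 0.64, 2.02 and 3.16 in the hif-1 mutant. The ranges overlapped widely. Its mutant mean was 1.94 ± 1.26 (adjusted p = 0.0664 against 0 in limma) and the difference -1.04 (95% interval -2.58 to 0.49, adjusted p = 0.923). The interval, not adjusted over features, held a difference of 0. The mutant mean missed the test against 0, so a rise of F26A3.4 in the mutant was not shown.

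**Figure D3:**
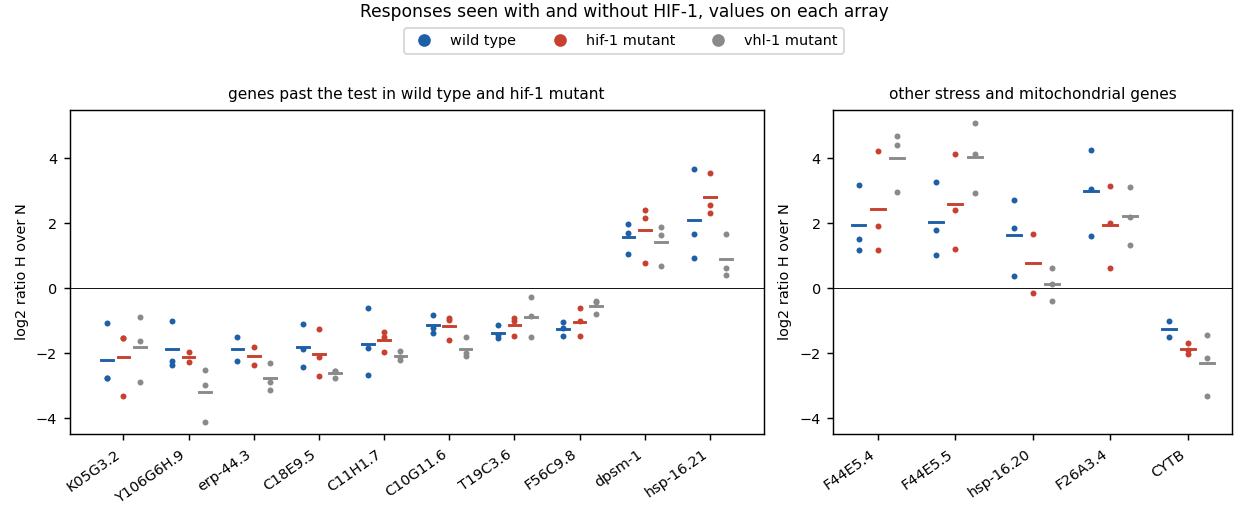
Log2 ratio of H over N on each array (points) and group means (bars) in wild type (blue), the hif-1 mutant (red) and the vhl-1 mutant (grey) for the 10 named genes past the test in wild type as well as hif-1 arrays, and for 5 other genes the text describes. Wild type and hif-1 values interleave for every gene shown except CYTB, measured on 2 wild type arrays, at -1.02 and -1.48, and on 3 hif-1 arrays, between -2.02 and -1.68.

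The responders of each genotype were then read in the other, whose mean had no part in choosing them. The 16 genes called higher in wild type (0.223% of named genes, against 0.225% of all features) had a median of 1.39 there and 0.75 in the hif-1 mutant, and 14 of the 16 were above 0 in the mutant. The 18 called lower (0.251%, against 1.19%) had medians of -1.74 and -1.14, and 17 were below 0 in the mutant. In the reverse direction, the 36 genes called higher in the mutant (0.501%, against 0.475% of all features) had a median of 1.26 there and 0.42 in wild type, with 26 above 0. The 38 called lower (0.529%, against 1.28%) had -1.37 and -0.75, with 31 below 0. Genes chosen for passing in one genotype read nearer to 0 in the other by the choice alone, so these drops are no sign of a difference. A gene's own dye effect, shared by all arrays, would put it on the same side of 0 in both genotypes. The counts on the same side are therefore no measure of shared responses, and the share over all named genes was not counted. Of the 16 genes called higher in wild type 2 were also called in the mutant, and of the 18 called lower 8 were.

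Genes called in the vhl-1 mutant, whose mean took no part in this comparison, had medians further from 0 on the hif-1 arrays than on the wild type arrays. The set held 183 genes higher (2.55%) and 259 lower (3.61%) in H, together 6.16% of named genes, against 4.03%, 5.15% and 9.18% of all features. The medians of the 183 were 0.41, 0.27 and 0.05 on the wild type arrays and 0.43, 0.51 and 0.67 on the hif-1 arrays. Those of the 259 were -0.49, -0.35 and -0.24 in wild type and -0.62, -0.65 and -0.59 in the hif-1 mutant. All hif-1 arrays thus lay beyond all wild type arrays in both sets, by a narrow margin in the first. Wild type array 3 lay nearest to 0 in both. With arrays scaled to one spread the groups overlapped: the 183 genes then had medians of 0.44, 0.31 and 0.06 in wild type and 0.36, 0.40 and 0.82 in the hif-1 mutant, and the 259 genes had -0.52, -0.40 and -0.30 against -0.52, -0.52 and -0.72.

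**Figure D4:**
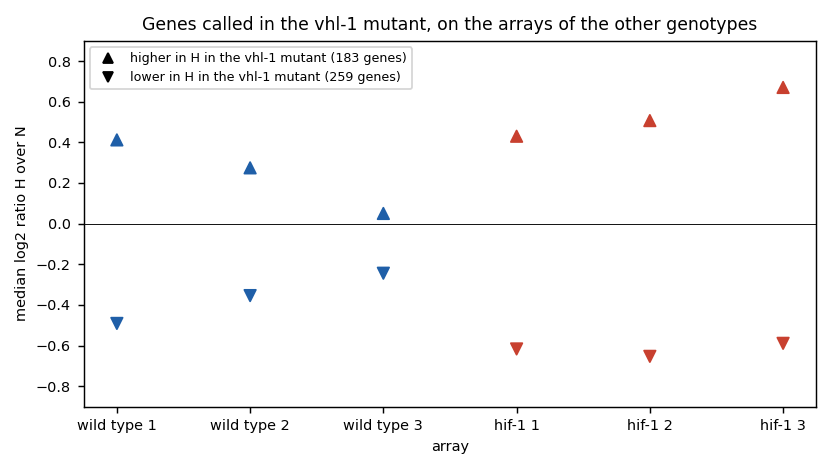
Median log2 ratio of H over N on each wild type array (blue) and hif-1 array (red) over the 183 named genes called higher (upward triangles) and the 259 called lower (downward triangles) in the vhl-1 mutant. The medians run from 0.05 to 0.41 in wild type and from 0.43 to 0.67 in the hif-1 mutant for the first set, and from -0.49 to -0.24 and from -0.65 to -0.59 for the second.

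The respiratory chain is the main user of oxygen in the cell. Its 25 measured members, 8 of them encoded by the mitochondrial genome, had a median difference of 0.08 against 0.02 over all named genes. None had an unadjusted p under 0.05, against 5.85% of named genes, and 1 of the 23 with 6 values, ndub-11, had arrays that did not overlap, against 9.55% (0.19, 0.02 and 0.39 in wild type; -0.36, -0.37 and -0.04 in the mutant). CYTB, the cytochrome b of complex III, fell in the mutant past the test (-2.02, -1.68 and -1.88; mean -1.86, adjusted p = 0.0148 in limma) and read -1.02 and -1.48 on 2 wild type arrays, a difference of -0.61 (95% interval -1.68 to 0.45). The complex I genes ND1 to ND6 and the ATP synthase gene ATP6 stayed between -0.47 and 0.33 on every wild type array. On the hif-1 arrays ND3, ND4, ND6 and ATP6, chosen after their values were seen, read 1.07 to 1.72 on array 1 and -1.20 to -0.59 on array 2, and all 7 of these genes were below 0 on array 2. These 4 transcripts thus lay on opposite sides of 0 in 2 replicates of one group. The largest difference on the list, 2.00 for ndua-13, rested on 2 arrays of each genotype that ranged from -2.04 to 2.73.

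Among genes of defence and intracellular infection, 27 were measured and the median difference was 0.13. Of the 25 with 6 values, 3 were higher in the mutant without overlap and 0 lower, where 4.29% and 5.26% of named genes lay. irg-8, described above, and irg-5 (difference 0.97, adjusted p = 0.810 in limma) were among them. pals-3, of a family that controls the response to intracellular pathogens, differed by 2.61 (SE 0.70, adjusted p = 0.603). It read -1.08, 0.35 and 0.08 in wild type and 3.21, 3.69 and 0.27 in the mutant. The mutant mean of 2.39 passed the test against 0 (adjusted p = 0.0327), but hif-1 array 3 lay within the wild type range. The difference was 3.67 without that array (adjusted p = 0.0608 in limma) and 1.96 without hif-1 array 2. Leaving out the array that disagrees widens the difference by the choice alone, so the first value supports nothing further. The other 21 pals genes differed by -1.61 to 0.67, with a median over all 22 of 0.01.

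Neuropeptide-like genes, which encode signals between neurons, had a median difference of 0.09 over 18 members. Arrays did not overlap for 4 of the 17 with 6 values, all lower in the mutant, where 5.26% of all genes lay. nlp-49 read -0.21, 0.11 and 0.76 in wild type and -0.76, -2.24 and -0.38 in the mutant (difference -1.35, adjusted p = 0.772 in limma), and nlp-91 0.17, -0.51 and 0.88 against -0.70, -1.56 and -1.08 (-1.29, adjusted p = 0.772). In both, hif-1 array 2 was the lowest value, and without it nlp-49 differed by -0.79. The arrays of nlp-49 overlapped on one of its 2 spots, whose differences were -1.84 and -0.85. nlp-67 and nlp-68 differed by -0.60 and -0.89. The 30 neuronal genes measured in all, receptors included, had a median of 0.11.

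Gene classes by name were read in the same way. Of the 40 classes with at least 5 measured genes, 15 had a median difference below 0 and 25 above. The extremes were picked after their values were seen. The lowest median was that of ctsa, homologues of the lysosomal serine carboxypeptidase cathepsin A, at -0.96 over 5 genes. Of these ctsa-3.2 read 0.73, 0.03 and 0.41 in wild type and -0.56, -0.87 and -0.77 in the mutant (difference -1.12, adjusted p = 0.772 in limma). ctsa-1.1 and ctsa-1.2 differed by -0.98 and -0.96, ctsa-3.1 by -0.44 and ctsa-2 by 0.14. Without wild type array 3, ctsa-1.2 differed by -0.39 and ctsa-3.1 by -0.0080.

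The 2 classes named for intrinsically disordered proteins followed. All 5 idpc genes had a difference below 0, with a median of -0.55, and 13 of the 15 idpp genes did, with a median of -0.34. idpp-7 read 0.20, 0.14 and 0.78 in wild type and -0.52, -1.73 and -0.56 in the mutant (difference -1.31, SE 0.38, adjusted p = 0.657 in limma). idpp-5 and idpp-9 differed by -1.25 and -1.15, also without overlap, and idpp-1 by -1.16 with overlap. In these 4 genes wild type array 3 was the highest value, between 0.78 and 1.21, and array 1 lay between -0.66 and 0.20. idpc-7 was at 0.86, 0.70 and 1.18 in wild type and -0.10, 0.34 and -0.46 in the mutant (-0.98, adjusted p = 0.750). The 2 spots of idpc-2 differed in sign, at -0.75 and 0.12. In the vhl-1 mutant the medians were -0.63 for idpp and -0.37 for idpc. Members of a class can share sequence, so their spots are not independent.

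The highest class median was 0.38, over 11 claudin-like clc genes, 8 of them above 0. clc-32 differed by 1.10 on 2 wild type and 3 mutant arrays, and clc-31 by -0.92. No clc gene with 6 values was free of overlap. The carboxylesterase class cest, with 32 genes, had a median of 0.17, and 22 members lay above 0; the genes of lowest p, cest-6, cest-8, cest-4 and cest-1.1, differed by 0.88, 0.72, 0.89 and 0.55. None of the 32 had an unadjusted p under 0.05, against 5.85% of named genes, and arrays did not overlap for 5, 3 higher and 2 lower, against 9.55%. Without wild type array 3, cest-4 and cest-8 differed by 0.36 and 0.42, and without hif-1 array 2 cest-6 differed by 0.54.

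**Figure D5:**
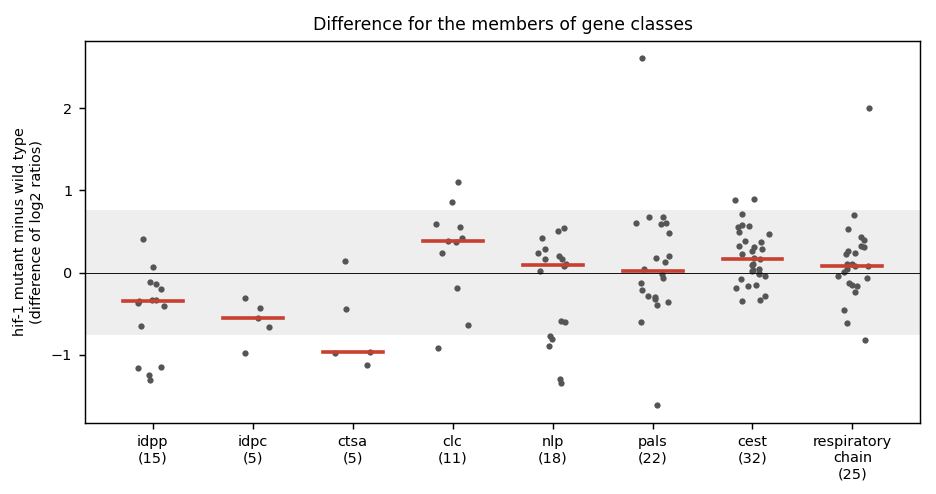
Mean log2 ratio of H over N in the hif-1 mutant minus that in wild type (vertical axis) for each measured gene of 7 gene classes and of the respiratory chain list (points, spread sideways at random), with the median (red bar) and the range from the 5th to the 95th percentile of named genes (grey band, -0.74 to 0.74); numbers of genes are in parentheses. The medians of idpp, idpc and ctsa lie at -0.34, -0.55 and -0.96, and the highest point is pals-3 at 2.61.

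The remaining lists had few members. Median differences were 0.01 for 11 translation genes, 0.10 for 7 splicing genes, 0.10 for 3 ER folding genes and 0.35 for 2 proteasome and ubiquitin genes. They were -0.09 for 2 detoxification genes, -0.06 for 8 sperm genes and 0.14 for 2 intestinal genes. The 5 cuticle genes had a median of 0.54, above that of all named genes (0.02). col-17 read -0.24, 0.16 and 0.05 in wild type and 0.52, 2.18 and 0.34 in the mutant, and col-19, a collagen of the adult cuticle, read 0.25, 0.45 and -0.52 against -0.21, 2.79 and 0.26. Both high values were on hif-1 array 2, and without that array col-17 differed by 0.44 and col-19 by -0.034. Glycolysis, muscle, nuclear receptors, histones and the HIF pathway itself had no named member. Defining markers of muscle, intestine and germ line such as unc-54, vit-2, ges-1 and pgl-1 had no named spot, so the tissue makeup of the worms was not checked, and fewer cells of a type cannot be told apart here from less RNA per cell.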

How the data were processed

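The deposited values, 1 log ratio per spot and array, were made by the authors from 2-colour arrays and were taken here as log2. Image analysis, background correction, normalisation, the base of the logarithm and the direction of the ratio are not stated in any label or header, and spot intensities were not used, so signal over background is unknown and the number of arrays limits the precision. The sign was turned to H over N, each array was centred on its median, and spots of one gene were averaged. Names came from the platform annotation and were brought up to date by gene identifier through the WBcel235 gene table (7741 spots matched). Features with values on at least 2 arrays of each genotype (20858) were fitted with limma 3.58.1 in R 4.3.3 (lmFit and eBayes, 1 mean per genotype over 9 arrays, 6 residual degrees of freedom). p-values were adjusted by Benjamini-Hochberg over all features, with a threshold of 0.05. The fit was tested on simulated data.

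The text names the measured HIF-1 targets, the 15 genes of lowest p, 5 genes of largest difference per class, genes past the test in both genotypes and up to 4 of lowest p per list; others are said to be chosen after their values were seen, as were F26A3.4, CYTB and the genes ND1 to ND6 and ATP6. The members and the 18 gene lists were chosen with earlier results of these data known. The 20 alternative settings changed centring, scaling, averaging, filters, the variance model, the replicate block or left out an array. Promoter sequences were not analysed here.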

Additional observations from a re-analysis of the deposited data

Results flagged for a closer look

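The responses of 21 of the 92 genes the text names by rule lay on opposite sides of 0 in the 2 genotypes, on every wild type array and every hif-1 array. Among all genes with 6 values 144 (2.08%) did so. Many of the genes named by rule were chosen for a low p or a large difference between the genotypes. A higher share among them follows from that choice and supports nothing further. The difference itself was tested in limma for each gene and passed the threshold for none, with adjusted p-values of 0.446 or more. Below 0 in the hif-1 mutant and above 0 in wild type were snrp-40.1 (difference -2.28), chtb-1 (-2.15), B0280.7 (-1.92), C53B7.3 (-1.82), F41G3.10 (-1.77), F01D5.5 (-1.68), T26F2.1 (-1.57), slfl-3 (-1.54), C43F9.5 (-1.49), C01B9.1 (-1.49), ZK470.6 (-1.36), idpp-7 (-1.31), C30G12.1 (-1.28), ctsa-3.2 (-1.12) and ndub-11 (-0.46). Above 0 in the mutant and below 0 in wild type were C12D12.1 (1.69), B0454.8 (1.59), irg-8 (1.51), C02B4.3 (1.50), F54B11.11 (1.40) and F31A3.3 (1.16).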

How the results depend on the processing

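No named gene's difference passed the threshold under any of the 20 alternatives. The count of features past it was 0 in each, except without wild type array 1, where 1 unnamed spot passed (adjusted p = 0.0388), so the range with an array left out was 0 to 1. The count of genes past the test in both genotypes, 10, was 3 with arrays scaled to one spread, 0 with named genes alone, 1 with print layout centring and 1 to 13 with an array left out. Whether the replicate numbers pair the arrays is not stated, and the values did not settle it. Deviations of same-numbered arrays correlated at -0.24 to 0.30, over 0.1 in 2 of 9 pairs. The highest was that of wild type array 1 and hif-1 array 1. Of the hif-1 arrays 1 of 3, and of the wild type arrays 2 of 3, correlated best with their own number. The log ratios of same-numbered wild type and hif-1 arrays correlated at 0.36, 0.37 and 0.03 for numbers 1, 2 and 3. With the replicate block 18 genes passed in both genotypes, 8 of them among the 10, and 0 features differed. The 155 genes without overlap and with a difference of at least 1 became 151 to 405 with an array left out, where 3 against 2 arrays overlap less often by construction. Without hif-1 array 2 the split turned, with 234 higher and 153 lower in the mutant against 58 and 97.

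Of 1809 values of 92 genes, 24 in 11 genes changed sign, all of differences that had not passed the test. With scaled arrays C10G11.6 became 0.22, C18E9.5 0.27 and Y106G6H.9 0.39. erp-44.3 became 0.21 with print block centring, 0.014 with print layout centring and 0.041 with the replicate block. With an array left out the range was -0.14 to 0.19 for C10G11.6, -0.38 to 0.65 for C11H1.7, -0.60 to 0.14 for C18E9.5, -0.41 to 1.12 for F44E5.4, -0.23 to 1.24 for F44E5.5 and -0.22 to 0.67 for K05G3.2. It was -0.034 to 1.47 for col-19, -0.10 to 0.71 for dpsm-1, -0.16 to 0.32 for erp-44.1 and -0.50 to 0.17 for Y106G6H.9. The cause of these changes was not tested. Leaving out an array turned the difference of 41 of the 92 genes or moved it by over 1.5 times. F22B5.4 stayed between -2.71 and -1.51 with an array left out.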

Other observations

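The largest difference of all named genes, 3.15 for T04C9.1 (SE 0.83, adjusted p = 0.603 in limma), rested on 2 hif-1 arrays. T04C9.1 read -2.18, -2.61 and -3.24 in wild type and 1.51 and -0.56 in the mutant. B0272.4 followed with 2.82, from -2.76, -2.18 and -1.50 in wild type to 3.51, 0.32 and -1.81 in the mutant, where the replicates spread over more than 5 units. Both were chosen after their values were seen.

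Of 2882 pairs of named genes that neighbour each other in the WBcel235 annotation, 4 had both genes among the 155 without overlap, and each pair moved in one direction. F08D12.3 and F08D12.2 differed by -1.24 and -1.16, and T05B4.9 and T05B4.10 by -1.29 and -1.25. F13B6.2 and F13B6.3 differed by 1.30 and 1.28, and F47B7.4 and F47B7.5 by 1.04 and 1.02. How often neighbouring genes outside the 155 moved in one direction was not counted, so these 4 pairs are a description. Whether the spots of a pair read one another's RNA was not tested.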
